A study of Mus musculus with 6 samples.

Results

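The genes described here lie around Ncoa1 on mouse chromosome 12, from the centromeric end of the chromosome to 30 Mb beyond the end of Ncoa1. Ncoa1 occupies positions 4297362 to 4569452 on the minus strand of GRCm39. It encodes SRC-1, steroid receptor coactivator 1, the gene deleted in the knockout. Every row of the counts table on chromosome 12 that started no farther than 30 Mb past the end of Ncoa1 and held at least 10 counts over the 6 libraries was taken, without Ncoa1, Pomc, Greb1, Odc1, Adi1 and Rps7. This gave 298 genes of the 50559 in the table, and of the 503 rows of any count in the same stretch. By the RefSeq types of genes of the same name, 132 code for protein, 83 are long noncoding RNAs, 57 are pseudogenes and 4 are transcribed pseudogenes. A further 5 are other RNAs, 2 are small nucleolar and 2 small nuclear RNAs, and 13 have no match. The members numbered 44, 30, 34, 38, 65, 40 and 47 in successive 5 Mb bins from the start of the chromosome, and Ncoa1 itself lies in the first bin.

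The study sequenced RNA of hypothalamus from mice with a deletion of SRC-1 and from wild-type control mice, with 3 libraries per genotype. Strain, age, sex, the deleted exons and the way the allele was made are not stated in the sources used here. Nothing says that libraries of a group come from separate animals, so p-values measure the spread between these libraries, which may be technical. The level of Ncoa1 itself followed the labels, at 5180, 4630 and 5406 counts in the wild-type libraries and 1692, 1478 and 1766 in the knockout libraries. Library totals ran from 36613507 to 46755553 counts. Summed markers of the hypothalamus were 458.5 to 588.9 CPM (counts scaled to library size, with TMM factors) in wild type against 593.1 to 741.2 CPM in the knockout, and all 8 were detected. Summed markers of other cell types also differed, except that the pituitary sums overlapped and the meningeal ranges lay close together. By the edgeR test used below, 0 of the 5 choroid plexus and 1 of the 6 meningeal markers passed, against 0.834% of all genes tested. The 6 oligodendrocyte markers summed to 3417 to 4271 CPM in wild type against 5469 to 7320 CPM in the knockout, and the 6 markers of ependyma and tanycytes to 158.6 to 175.2 and 60.95 to 74.82 CPM. The 5 choroid plexus markers summed to 46.04 to 50.2 and 24.07 to 33.46 CPM, the 6 meningeal markers to 59.15 to 219.9 and 52.11 to 57.96 CPM, and the 6 pituitary markers to 7.21 to 18.9 and 0.285 to 10.2 CPM. None of these markers was at 0 in all libraries. In bulk RNA, fewer cells of a type and less RNA per cell cannot be told apart.

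SRC-1 binds ligand-activated nuclear receptors and recruits histone acetyltransferases to their target genes, and in the hypothalamus it is known for its part in energy balance and reproduction. Its neighbours on the chromosome are not a functional family. They include Adcy3, an adenylyl cyclase of primary cilia, Dnmt3a, a DNA methyltransferase, Itsn2, a scaffold of endocytosis, and Vsnl1 and Hpcal1, calcium sensors of neurons. Farther along lies a stretch of duplicated genes. Many of its rows carry copies of part of Hpcal1, and many carry a stretch related to Zfp996, a zinc finger gene. C2H2 zinc finger genes are DNA-binding factors that commonly stand in clusters formed by duplication.

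The sequences of this stretch are shown because several of the members that rose in the knockout belong to it, and because the similarity of its copies bears on how reads are counted. Each sequence is 140 bases of exon from GRCm39, read 5′ to 3′ on the strand of the gene. In each set the stretch was picked, among those that align without gaps, by a rule on the number of differences. The differences given below thus do not measure the similarity of whole genes. The first set sets 3 pseudogenes beside the coding sequence of Hpcal1, with capitals at bases that differ from Hpcal1:
Hpcal1, chr12:17836331-17836470, plus strand: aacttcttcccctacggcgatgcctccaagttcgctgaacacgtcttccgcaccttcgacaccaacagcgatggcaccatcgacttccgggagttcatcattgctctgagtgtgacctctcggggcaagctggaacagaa
Gm46313, chr12:18823618-18823757, plus strand: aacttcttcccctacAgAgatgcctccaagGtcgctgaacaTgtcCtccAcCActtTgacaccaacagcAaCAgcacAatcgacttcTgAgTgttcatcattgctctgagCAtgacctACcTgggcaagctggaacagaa
Gm9282, chr12:22007621-22007760, minus strand: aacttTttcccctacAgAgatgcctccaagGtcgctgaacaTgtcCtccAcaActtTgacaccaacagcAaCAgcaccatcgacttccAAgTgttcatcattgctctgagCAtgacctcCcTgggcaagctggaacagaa
Gm47446, chr12:24229002-24229141, minus strand: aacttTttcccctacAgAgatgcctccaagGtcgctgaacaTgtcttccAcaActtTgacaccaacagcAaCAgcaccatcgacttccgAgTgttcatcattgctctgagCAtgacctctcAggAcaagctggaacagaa
The copies differed from Hpcal1 at 21, 19 and 17 of the 140 bases, in the order shown. Gm46313 and Gm9282 rose in the knockout, while Gm47446 was listed at 47, 59 and 50 counts in the wild-type libraries and 34, 7 and 46 in the knockout libraries.

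The second set comes from 4 genes with a stretch like Zfp996, with capitals at bases that differ from Gm38702:
Gm38702, chr12:19916974-19917113, minus strand: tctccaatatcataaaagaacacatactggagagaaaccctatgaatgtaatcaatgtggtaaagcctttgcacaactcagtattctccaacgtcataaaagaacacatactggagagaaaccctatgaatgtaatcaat
Gm32719, chr12:20293552-20293691, plus strand: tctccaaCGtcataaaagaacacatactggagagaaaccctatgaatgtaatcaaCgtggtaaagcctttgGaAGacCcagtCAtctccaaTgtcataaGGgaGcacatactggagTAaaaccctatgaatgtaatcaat
LOC118567992, chr12:22919084-22919223, minus strand: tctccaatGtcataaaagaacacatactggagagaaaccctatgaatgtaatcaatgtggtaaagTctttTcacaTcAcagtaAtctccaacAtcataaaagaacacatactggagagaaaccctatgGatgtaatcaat
Gm21297, chr12:24264989-24265128, minus strand: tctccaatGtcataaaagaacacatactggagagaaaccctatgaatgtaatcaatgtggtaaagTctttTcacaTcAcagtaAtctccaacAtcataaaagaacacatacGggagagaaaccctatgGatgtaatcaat
Gm32719 differed at 15 bases, LOC118567992 at 8 and Gm21297 at 9. Gm38702 and Gm32719 rose in the knockout, whereas LOC118567992 and Gm21297 did not pass and were lowest in knockout 2. In Gm21297 every knockout library lay below every wild-type library.

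The last pair are noncoding RNAs, with capitals where 1700030C10Rik differs from Gm31624:
Gm31624, chr12:21673822-21673961, plus strand: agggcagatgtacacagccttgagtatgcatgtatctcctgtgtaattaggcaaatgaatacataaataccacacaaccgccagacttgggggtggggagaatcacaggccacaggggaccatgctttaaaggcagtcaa
1700030C10Rik, chr12:20854731-20854870, minus strand: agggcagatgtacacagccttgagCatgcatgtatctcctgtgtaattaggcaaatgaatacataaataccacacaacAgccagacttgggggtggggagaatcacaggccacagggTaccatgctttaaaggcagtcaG
They differed at 4 of 140 bases. Over the 73.9% of the exons of 1700030C10Rik that match, identity was 97.8%. LOC118567992, Gm21297, Gm47446, Gm31624 and 1700030C10Rik were chosen after their values were seen.

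Rows with a stretch of at least 150 bases at 85% identity or more to Hpcal1 numbered 45 in the whole table, and 44 of them lay in the window, with starts from 17931553 to 24352064. Of these rows 29 were members. The same search with Zfp996 (positions 18437483 to 19123795, 4 counts in all and thus no member) found 223 rows in the table, 52 in the window and 38 members. Members whose exons matched another row of the window over at least 50% of their length at 90% identity or more numbered 47. Of these 12 lay between 15 and 20 Mb and 27 between 20 and 25 Mb, against 5, 1, 1, 0 and 1 in the other bins. Only read pairs placed at 1 position were counted, so levels of near-identical copies are uncertain.

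Of the 298 members, 199 had enough counts to be tested, and 8 passed the threshold of 0.05 by the quasi-likelihood test of edgeR, with p adjusted by Benjamini-Hochberg over 20257 genes. The background was 169 of 20257 genes, or 0.834%. Higher in the knockout were 7 members (0.242% of all genes tested were called higher), namely Gm48606, Gm46313, Gm40847, Gm3973, Gm38702, Gm32719 and Gm9282. Lower was 1 member, 2410004P03Rik (0.592% of all genes tested were called lower). At an unadjusted p under 0.05 there were 50 members, 34 higher and 16 lower, where all genes gave 13%. The libraries of the 2 groups did not overlap in 59 members, 34 higher and 25 lower, where 17.6% of all genes did so. The median log2 fold change was 0.00 over the members tested and 0.00 over all genes. A log2 fold change beyond 1 in size was found in 30 of the 199 members, 17 up and 13 down, and in 3.1% of all genes.

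Of the 7 members that rose, 6 stayed under 10 counts in every wild-type library, so they entered the test through the knockout libraries and had to be higher there. The same held for 10 of the 199 members tested and for 47 of the 20257 genes tested. The count of rises is a description for that reason. Members that were not tested numbered 99 and held 10 to 62 counts in all.

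**Figure D1:**
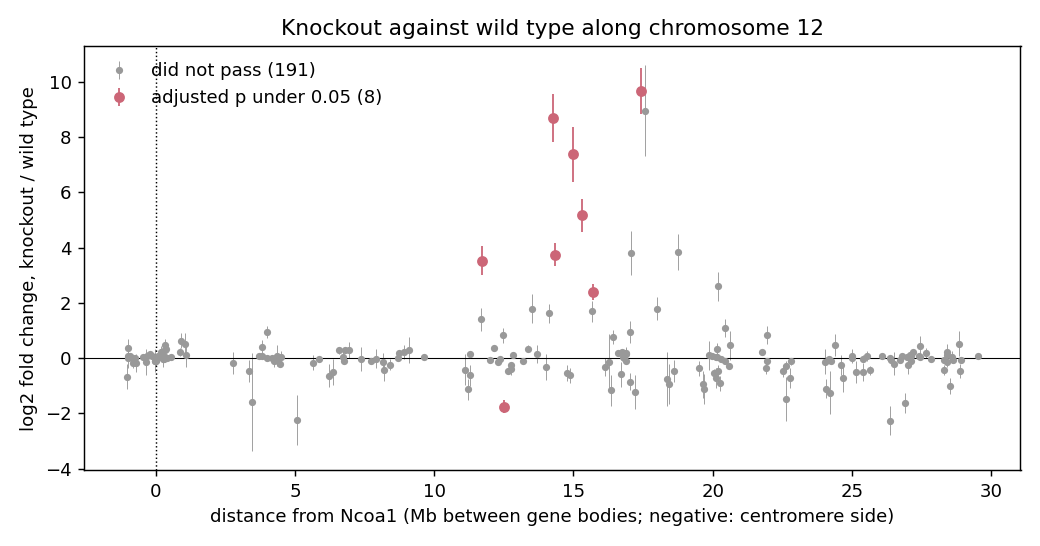
Log2 fold change (knockout over wild type, with SE) of the 199 members tested, by the distance in Mb between their gene bodies and that of Ncoa1. The 8 members past the threshold, in red, all lie more than 10 Mb from Ncoa1, and those near it sit close to 0.

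The members that rose all lay between 16282446 and 22080901. Gm9282, a pseudogene with a 700-base stretch like Hpcal1 (minus strand, 22004219 to 22080901), held 0, 0 and 0 counts in the wild-type libraries and 93, 144 and 70 in the knockout libraries. It was thus at least 96.6-fold higher, against a floor of 3 counts over the wild-type group (adjusted p 0.0113 in edgeR). Gm46313, a related pseudogene (plus strand, 18823053 to 18827133), held 0, 0 and 0 counts in the wild-type libraries and 39, 76 and 42 in the knockout libraries, at least 49.4-fold higher (adjusted p 0.0113 in edgeR). Neither gene was detected in wild type at this depth, and both were present in every knockout library. The exons of Gm46313 matched 38 other rows of the window, and those of Gm9282 matched 34.

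Gm3973 is a predicted protein-coding gene (plus strand, 19540221 to 19614158). It held 0, 0 and 0 counts in the wild-type libraries and 19, 30 and 14 in the knockout libraries, at least 19.8-fold higher (adjusted p 0.0248 in edgeR). Gm38702 (minus strand, 19874130 to 19932479) carries a 1854-base stretch at 91% identity to Zfp996. Its counts were 1, 0 and 3 in the wild-type libraries and 51, 73 and 39 in the knockout libraries, or 0.0322 ± 0.0367 and 1.30 ± 0.498 CPM (SD, n = 3), with an adjusted p of 0.00738 in edgeR. Gm40847 (plus strand, 18903325 to 19123391), with a 2025-base stretch like Zfp996, held 3, 1 and 3 counts in the wild-type libraries and 28, 40 and 35 in the knockout libraries. Its log2 fold change was 3.74 ± 0.42 (SE; adjusted p 0.00738 in edgeR). In each of these genes the lowest knockout library stood above the highest wild-type library.

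Gm32719 (plus strand, 20271316 to 20298492), whose exons hold a 1350-base stretch like Zfp996, was the one rise with over 10 counts in each wild-type library. Its counts were 11, 12 and 12 in the wild-type libraries and 52, 83 and 60 in the knockout libraries. The level rose from 0.292 ± 0.0238 to 1.55 ± 0.472 CPM (SD, n = 3), a log2 fold change of 2.39 ± 0.30 (SE; adjusted p 0.0113 in edgeR). Gm48606, a long noncoding RNA (plus strand, 16282446 to 16337544), held 5, 7 and 4 counts in the wild-type libraries and 54, 105 and 36 in the knockout libraries, a log2 fold change of 3.52 ± 0.53 (SE; adjusted p 0.0286 in edgeR). It had no related row by the 90% rule. Knockout 2 was the highest library in all 7 genes that rose.

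The calls were refitted with each library left out in turn. Gm46313, Gm40847, Gm38702 and Gm32719 passed in 6 of 6 fits. Gm3973 and Gm9282 passed in 5 and did not pass without knockout 1, with an adjusted p of 0.104 and 0.0758. Gm48606 passed in 2, with an adjusted p of 0.115, 0.0668 and 0.0846 without wild-type 1, 2 and 3 and 0.0947 without knockout 1. All 8 calls held without knockout 2, where 14 members passed in total. Without both first libraries Gm48606 (0.29), Gm3973 (0.139), Gm38702 (0.115), Gm9282 (0.0628) and Gm32719 (0.0618) did not pass. With library totals alone Gm48606 and Gm3973 did not pass (0.0533 each), nor did Gm48606 with limma-voom (0.0619). Among members with at least 1 CPM in at least 3 libraries, 3 of the 8 were still called.

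**Figure D2:**
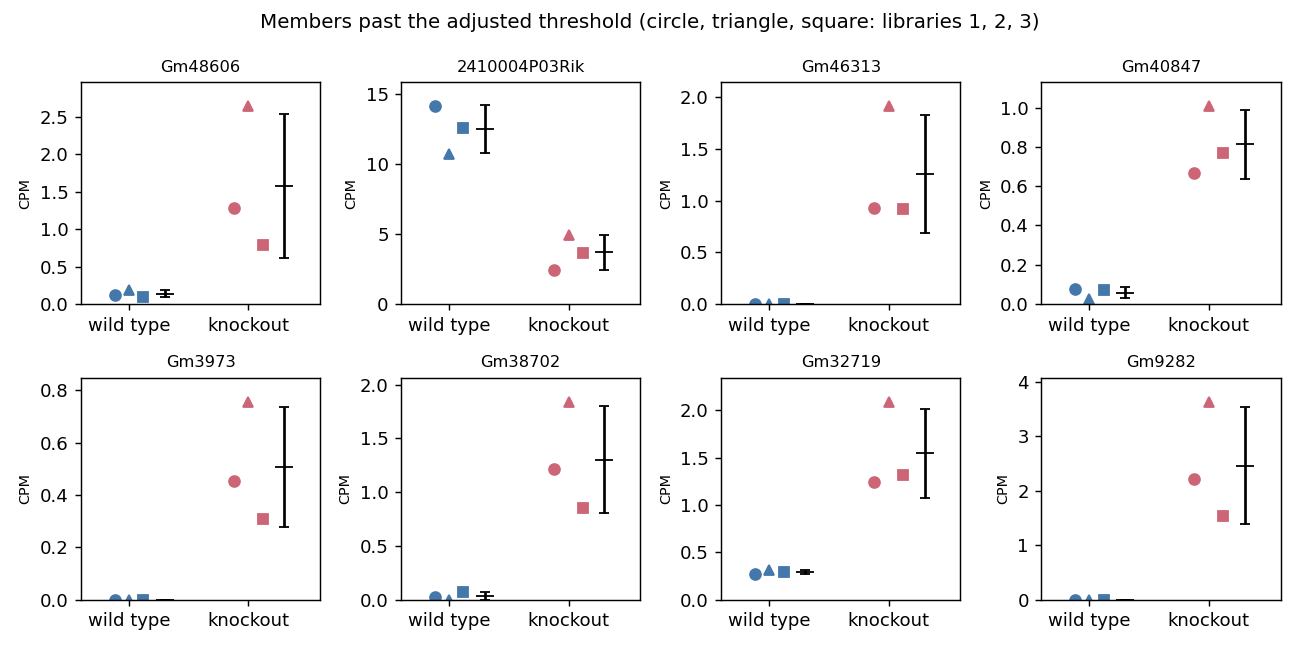
CPM of the 8 members past the threshold in each library, with wild type in blue, the knockout in red, and the mean and SD of each group in black. In 7 panels every knockout point lies above every wild-type point, and in 2410004P03Rik the order is the reverse.

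The 1 member that fell, 2410004P03Rik, is a protein-coding gene on the minus strand (17054959 to 17061759), and a gene at this place is named Cimip5, for a ciliary microtubule inner protein, in the GENCODE annotation. Its counts were 578, 406 and 524 in the wild-type libraries and 103, 195 and 168 in the knockout libraries. The level fell from 12.5 ± 1.73 to 3.68 ± 1.23 CPM (SD, n = 3), with a log2 fold change of -1.76 ± 0.23 (SE; adjusted p 0.0223 in edgeR). The call was lost without wild-type 1 (0.0606), wild-type 3 (0.0514) or knockout 3 (0.0671). Of the 6 markers of ependyma and tanycytes 4 were also called lower, where 0.592% of all genes tested were. None of the 6 was at 0, and their sums did not overlap between the groups. Foxj1, the master factor of motile cilia, held 1165, 864 and 672 counts in the wild-type libraries and 366, 576 and 476 in the knockout libraries, and did not pass (adjusted p 0.209 in edgeR). Tmem212, another of the 6, held 357, 215 and 270 and then 31, 152 and 109 counts and did not pass (adjusted p 0.326 in edgeR). The 4 that passed thus include neither. The part of these cells in the fall of 2410004P03Rik was not tested.

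None of the genes next to Ncoa1 passed. Within 1 Mb of Ncoa1 31 members were tested, 21 of them protein-coding, and edgeR called 0. At an unadjusted p under 0.05 there were 3 (Fkbp1b, Ubxn2a and Gm32214), while DESeq2 called 1, limma-voom 0, and its fit with sample quality weights 1. Over all genes 13% had such a p, DESeq2 called 4.26%, limma-voom 0.508% and the weighted fit 1.98%, so 3 of 31 is no excess. Log2 fold changes ran from -0.18 to 0.63 and their median size was 0.08. No member had exons that overlap those of Ncoa1. A pair of transcripts starts inside the Ncoa1 gene body on the opposite strand. LOC105244649, a long noncoding RNA, held 46, 50 and 45 counts in the wild-type libraries and 54, 41 and 49 in the knockout libraries, and Gm51963 held 5, 7, 8 and 9, 6, 7 counts and was not tested.

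The 10 tested members nearest to Ncoa1 had log2 fold changes of at most 0.23 in size and adjusted p of 0.6 or more in edgeR. Ptrhd1, the closest on the centromere side, held 163, 161 and 186 counts in the wild-type libraries and 166, 142 and 198 in the knockout libraries, and 67.3% of its exonic bases are shared with other genes. Cenpo, a centromere protein, held 267, 319 and 342 counts in the wild-type libraries and 314, 334 and 296 in the knockout libraries. Adcy3 was at 83.7 ± 6.19 CPM in wild-type and 78.3 ± 3.96 CPM in knockout libraries (SD, n = 3), a log2 fold change of -0.10 ± 0.07 (SE). Dnajc27, a small GTPase with a DnaJ domain, was at 219 ± 13.5 and 230 ± 15.0 CPM. Efr3b, which anchors a lipid kinase at the plasma membrane, had a log2 fold change of 0.15 ± 0.10 (SE). On the telomere side Itsn2 was at 79.5 ± 3.68 and 83.2 ± 8.15 CPM, and Fam228a had a log2 fold change of 0.23 ± 0.20 (SE). The other 2 of the 10, Gm3625 and Gm17816, had log2 fold changes of 0.05 and -0.09. In each of these genes the libraries of the 2 groups overlapped.

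Ubxn2a, an adaptor of the p97 ATPase, had the lowest p of the first 5 Mb. It was at 94.7, 110.6 and 110.2 CPM in the wild-type libraries and 133.9, 128.7 and 132.5 CPM in the knockout libraries. Its groups did not overlap, and the log2 fold change of 0.32 ± 0.07 (SE) did not pass in edgeR (adjusted p 0.0781). DESeq2 called it (0.00572), as did limma-voom when libraries were weighted by quality (0.0499).

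**Figure D3:**
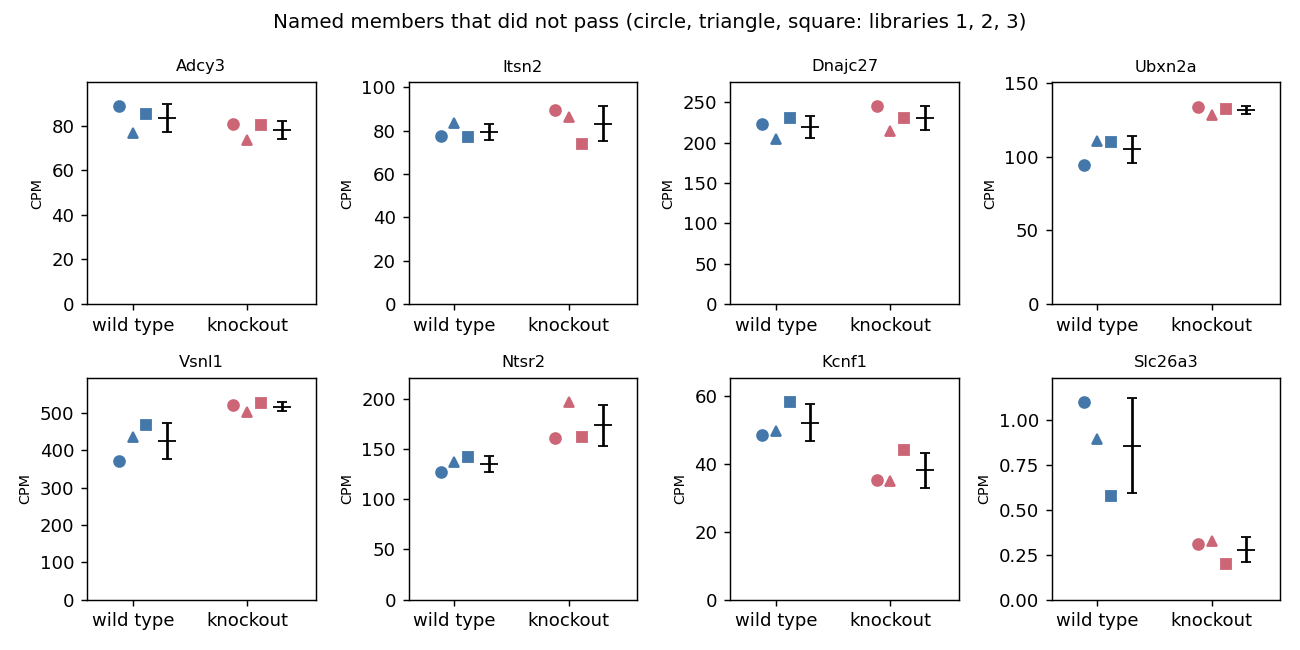
CPM of 8 named members that did not pass in edgeR, by library, with wild type in blue, the knockout in red and the mean and SD in black. The groups overlap in Adcy3, Itsn2 and Dnajc27, which lie next to Ncoa1, and do not overlap in the other panels.

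The calls were then placed by position. Between 15 and 20 Mb 6 of 28 members tested were called, 5 higher and 1 lower, and between 20 and 25 Mb 2 of 40, both higher. The 5 rises between 15 and 20 Mb and Gm9282 entered the test through the knockout libraries alone, and with a minimum of 1 CPM in 3 libraries 1 call was left between 15 and 20 Mb. EdgeR called 0 of 31, 20 and 20 members in the 3 bins before and 0 of 27 and 33 in the 2 after. With the genes that the rule leaves out counted too, the first bin had 1 of 33 called. The bin from 25 to 30 Mb then had 1 of 29. DESeq2 called 1, 1 and 1 before, 8 and 10 in the middle bins, and 0 and 3 after, and limma-voom called 5 and 3 in the middle bins and 0 elsewhere. Over all genes DESeq2 called 4.26% and limma-voom 0.508%, which is the background of these counts. Unadjusted p under 0.05 was reached by 2, 3, 3, 16, 15, 5 and 6 members along the 7 bins. The groups did not overlap in 2, 3, 3, 15, 20, 7 and 9 members. All genes gave 13% for such a p and 17.6% for groups that did not overlap. In the middle bins both counts include members that entered the test through the knockout libraries alone and had to be higher there. Over all genes of the table in 5 Mb bins with at least 10 genes tested, 462 bins in all, the bin from 15 to 20 Mb of chromosome 12 had the highest share called, 6 of 30 or 20%, which rests on the 5 rises just described. The next was the bin from 20 to 25 Mb of chromosome 6, with 2 of 14 or 14.3%, and 327 bins had no call. The bin from 20 to 25 Mb of chromosome 12, with 2 of 40, ranked 24. On the rest of chromosome 12, beyond the window, 6 of 583 genes were called. These include 1 of 10 in the bin from 35 to 40 Mb, which ranked 4.

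The size of the differences was also listed by position. The middle bins include the members that entered the test through the knockout libraries alone and had to be higher there. Their medians are thus no separate support for the positions of the calls. The median size of the log2 fold change was 0.49 between 15 and 20 Mb and 0.57 between 20 and 25 Mb, 0.28 between 25 and 30 Mb, and 0.08 to 0.17 in the other bins, against 0.12 over all genes. Members of the middle bins were low, with a median of 1.44 and 1.40 CPM against 12.2 CPM over all genes. The bins from 5 to 10 and from 10 to 15 Mb were as low, at 1.69 and 1.11 CPM, with median sizes of 0.15 and 0.17. The part of low counts in these sizes was not tested. Counted outward from the ends of Ncoa1, 5 calls lay at 10 to 15 Mb and 3 at 15 to 20 Mb.

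**Figure D4:**
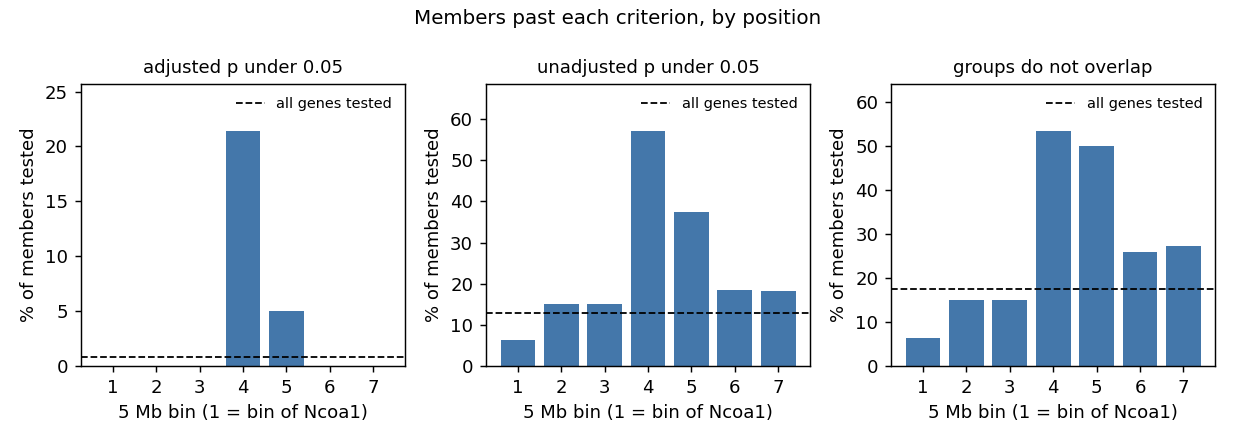
Share of the members tested in each 5 Mb bin that passed the adjusted threshold, had an unadjusted p under 0.05, or had groups that did not overlap, with the share of all genes as a dashed line. Bins 4 and 5 stand above the line in all 3 panels. Both include members that entered the test through the knockout libraries alone and had to be higher there. The panels are thus no separate support for one another.

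Related copies were counted apart from the rest. Of 15 tested members with a stretch like Hpcal1, edgeR called 5 higher and none lower. Their groups did not overlap in 7 that were higher and 5 that were lower. Of 26 with a stretch like Zfp996, edgeR called 5 higher and none lower. Here the groups did not overlap in 10 that were higher and 5 that were lower. Over all genes 0.592% were called lower, and 17.6% had groups that did not overlap. Of all members, tested or not, 18 carry both stretches. Of 22 tested members with a close relative in the window, 5 were called, and of 177 without one, 3, where 0.834% of all genes were called and 0.242% called higher. The 5 called members with a relative (Gm46313, Gm40847, Gm3973, Gm38702 and Gm9282) all entered the test through the knockout libraries alone, so nothing is read from these counts. Hpcal1 itself, the intact calcium sensor (17740793 to 17841943), held 5314, 4338 and 6070 counts in the wild-type libraries and 5201, 4385 and 5851 in the knockout libraries, with overlapping groups and a log2 fold change of -0.11 ± 0.09 (SE; adjusted p 0.73 in edgeR).

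Genes with no count at all in wild type came next. Such rows reach the minimum of 10 counts through the knockout libraries alone, so they had to be higher there. Their fold values and positions are thus a description. Of 27120 rows of the table with at least 10 counts, 10 had 0 counts in all 3 wild-type libraries (0.0369%), and 8 of these were members, with starts from 18.27 to 23.45 Mb. Conversely 7 rows had 0 counts in all knockout libraries, none of them a member. Besides Gm46313, Gm3973 and Gm9282 the 8 were Gm40879, Gm9283, LOC118567990, Gm6838 and Gm38699, chosen after their values were seen. LOC118567990 held 40, 115 and 31 counts in the knockout, at least 58.6-fold higher, and its adjusted p was 0.146 in edgeR. Gm38699, Gm9283, Gm6838 and Gm40879 were at least 11.96-fold, 7.87-fold, 7.56-fold and 5.35-fold higher and were not tested. All 8 had a close relative in the window. In Gm40879 knockout 2 shared the highest count with knockout 1, 6 each, and in the other 7 genes knockout 2 held most.

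The 3 knockout libraries did not match each other in the same stretch. A library was taken to stand alone where its CPM was under 0.5 times the lowest, or over 1.5 times the highest, of the other 5, in rows with at least 50 counts, a rule chosen after the values were seen. Knockout 2 was alone low in 20 of 205 members, against 70 of 20753 rows of the table (0.337%). It was alone high in 12 members, against 141 rows (0.679%). In the other 5 libraries 0 to 4 members were alone low and 0 to 5 alone high. The 20 low members started between 12.77 and 29.26 Mb and the 12 high ones between 16.28 and 24.75 Mb. None of the 52 members compared in the first 10 Mb and none of the 34 in the last bin was among them.

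Among the low members, 1700030C10Rik held 43, 45 and 41 counts in the wild-type libraries and 68, 0 and 58 in the knockout libraries. Its noncoding relative Gm31624 held 7, 0 and 0 counts in the wild-type libraries and 27, 48 and 33 in the knockout libraries. Knockout 2 was thus at 0 for one copy and highest for the other, and 58.7% of the exonic bases of Gm31624 are shared with other genes. LOC118567992, related to Zfp996, held 70, 46 and 52 counts in the wild-type libraries and 60, 0 and 47 in the knockout libraries. Gm21297 held 59, 60 and 51 and then 42, 5 and 38 counts, and 3110053B16Rik 588, 601 and 519 and then 369, 79 and 374. Gm31269, a noncoding RNA farther along (start 28787845), held 21, 30 and 34 and then 24, 0 and 14 counts. In each of these low genes knockout 2 was far under knockout 1 and 3. In Gm21297 and 3110053B16Rik knockout 1 and 3 also lay under every wild-type library.

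Among the high members, LOC118567995 held 13, 8 and 3 counts in the wild-type libraries and 94, 202 and 66 in the knockout libraries. It matches LOC118567990 at 98.7% identity. Gm52012, a noncoding RNA, held 9, 11 and 8 counts and then 41, 103 and 34. Over the 12 high members knockout 2 stood at 1.62 to 3.55 times the mean of knockout 1 and 3, with a median of 2.03. Over the 20 low members it stood at 0 to 0.476 times that mean, with a median of 0.213. Of the high members 6 were called by edgeR and of the low members none, where 0.834% of all genes tested were called. The values of knockout 2 set both groups and also enter the test. All of the 6 but Gm32719 entered the test through the knockout libraries alone, so nothing is read from these counts. All 7 rises remained when knockout 2 was left out. A close relative in the window was present for 7 of the 12 high and 6 of the 20 low members. The genes named in both groups were chosen after their values were seen.

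**Figure D5:**
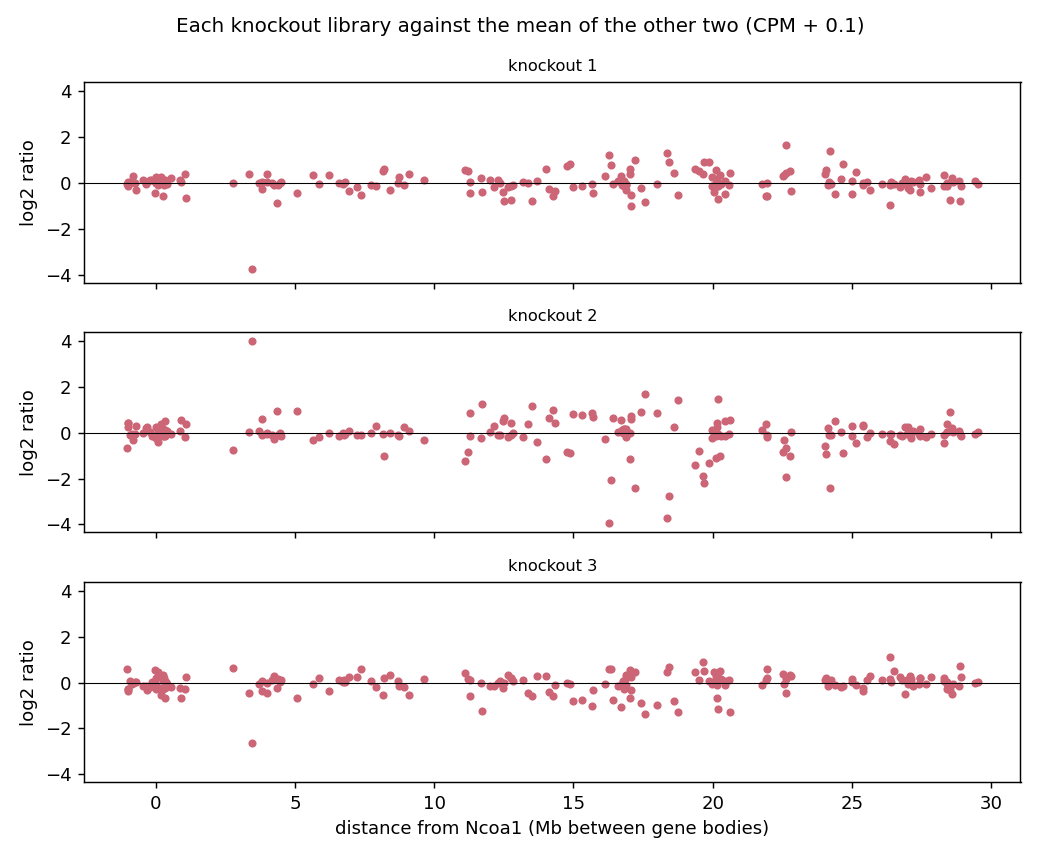
Log2 ratio of each knockout library to the mean of the other 2 (CPM plus 0.1) for the 205 members with at least 50 counts, by distance from Ncoa1 in Mb. Knockout 2 has its lowest ratios among members more than 10 Mb from Ncoa1, and the lone point near 3.5 Mb is Apob, listed at 0, 94 and 5 counts in the knockout.

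The named protein-coding members were then read by role. The counts of each list stand against the shares over all genes, which were 0.834% called by edgeR, 4.26% by DESeq2, 0.508% by limma-voom and 1.98% with sample quality weights, and 13% at an unadjusted p under 0.05. Among calcium sensors, channels, adhesion and signalling genes of neurons, edgeR called 0 of 14, with 8 at an unadjusted p under 0.05, while DESeq2 called 4, limma-voom 0, and its fit with sample quality weights 1. The list median was 0.04, against 0.00 over all genes. Kcnf1, a modulatory potassium channel subunit, was at 48.6, 49.8 and 58.4 CPM in the wild-type libraries and 35.46, 34.95 and 44.18 CPM in the knockout libraries. Its log2 fold change was -0.45 ± 0.11 (SE; adjusted p 0.0899 in edgeR), and it passed without knockout 3 (0.0298). Ntsr2, a neurotensin receptor of astrocytes, was at 126.8, 137.2 and 141.7 CPM and then 161.2, 197 and 162.2 CPM, a log2 fold change of 0.36 ± 0.09 (SE; adjusted p 0.0966 in edgeR). Vsnl1 had the highest level per kilobase of the protein-coding members, 222 CPM per kb in wild type and 270 in the knockout. Its 372.3, 435.1 and 469 CPM in the wild-type libraries and 522.9, 502.6 and 526.3 CPM in the knockout libraries gave a log2 fold change of 0.28 ± 0.09 (SE; adjusted p 0.194 in edgeR). In these 3 genes the groups did not overlap, yet none passed.

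Genes of energy balance and obesity loci numbered 9 tested, with none called by edgeR, 1 at an unadjusted p under 0.05, none called by the other 3 tools and a median of -0.05. Id2, a dominant-negative helix-loop-helix factor, was at 53.8 ± 7.61 CPM in wild-type and 44.3 ± 2.27 CPM in knockout libraries (SD, n = 3), with overlapping groups (adjusted p 0.257 in edgeR). Tmem18, a nuclear membrane protein at an obesity locus, had a log2 fold change of 0.09 ± 0.07 (SE). Of 14 genes of membrane and vesicle traffic edgeR called none, with 4 at an unadjusted p under 0.05 and a median of 0.11. DESeq2 called 1, and limma-voom called 0, or 1 with libraries weighted by quality. Besides Ubxn2a the list was led by Itgb1bp1, a regulator of integrins, at 18.7 ± 1.16 and 22.0 ± 1.09 CPM (SD, n = 3; adjusted p 0.219 in edgeR).

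Of 7 tested transcription factors edgeR called none, 2 had an unadjusted p under 0.05, the median was -0.24, and DESeq2 called 1, Grhl1, where both limma fits called 0. Grhl1, a grainyhead factor of epithelia, was at 20.5, 15.3 and 18.5 CPM in the wild-type libraries and 10.2, 11.7 and 15.1 CPM in the knockout libraries. Its log2 fold change was -0.55 ± 0.16 (SE; adjusted p 0.174 in edgeR, and 0.0459 without knockout 3). Among 12 genes of chromatin, DNA repair and cell cycle none was called by any of the 4 tools or had an unadjusted p under 0.05, and the median was 0.03. Rrm2, a subunit of ribonucleotide reductase, held 60, 44 and 61 counts and then 38, 38 and 49, and E2f6, a repressor of the E2F family, was at 48.6 ± 0.975 and 44.6 ± 2.24 CPM (SD, n = 3).

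The list of cilium and microtubule motor genes, 8 tested, had none called by any of the 4 tools, 1 at an unadjusted p under 0.05 and a median of 0.04. Wdr35, a subunit of the intraflagellar transport A complex, was at 72.6, 73.3 and 76.3 CPM in the wild-type libraries and 64.4, 64.2 and 64.9 CPM in the knockout libraries (log2 fold change -0.20 ± 0.06, SE; adjusted p 0.168 in edgeR). Efcab10 held 172, 114 and 154 counts and then 73, 101 and 163. Neither passed, and the lower markers of ependyma given above stand beside these values.

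The remaining lists held no call by any of the 4 tools. Of 9 genes of RNA processing and translation none had an unadjusted p under 0.05 (median -0.01), with Nol10 at 0.10 ± 0.07 and Rnaseh1, which degrades RNA in hybrids with DNA, at -0.08 ± 0.10 (log2, SE). Of 8 genes of lipid and redox metabolism none did (median -0.02), with Ldah, a lipid droplet hydrolase, at 0.09 ± 0.07 and Dld, the shared E3 subunit of mitochondrial dehydrogenases, at 0.07 ± 0.07 (log2, SE). In the list of 5 matrix and secreted genes 1 had an unadjusted p under 0.05 (median -0.07). This was Colec11, a collectin, with 29, 32 and 40 counts in the wild-type libraries and 22, 8 and 20 in the knockout libraries (adjusted p 0.189 in edgeR), and the part of the lower meningeal and choroid plexus markers in these values was not tested, while Lamb1, a laminin chain, was at -0.07 ± 0.09 (log2, SE). Of 6 innate immune genes 2 had an unadjusted p under 0.05 (median 0.04), Colec11 and Rnf144a, a ubiquitin ligase, at 0.22 ± 0.08 (log2, SE). Of 7 folding and adaptor genes 1 did (median -0.04), Pdia6, a disulfide isomerase of the endoplasmic reticulum, at 140 ± 10.4 and 117 ± 10.6 CPM (SD, n = 3; adjusted p 0.197 in edgeR), and Trib2 was at 0.13 ± 0.07 (log2, SE).

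Among named members that did not pass, the largest negative log2 fold change belonged to a gene on no list. Slc26a3, a chloride and bicarbonate exchanger, held 45, 34 and 24 counts in the wild-type libraries and 13, 13 and 9 in the knockout libraries. Its log2 fold change of -1.62 ± 0.35 (SE) did not pass in edgeR (adjusted p 0.0613, and 0.0404 without wild-type 3). The part of the lower ependymal, choroid plexus and meningeal markers in it was not tested. The highest members per kilobase of the other bins did not pass either. Rhob, a small GTPase, was at 73.4 and 73.5 CPM per kb in wild type and knockout, Ywhaq, a 14-3-3 protein, at 107 and 99.2, Kidins220, a neurotrophin receptor scaffold, at 54.9 and 50.8, Dld at 48.8 and 51.4 and Efr3b at 41.4 and 46.0.

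At the edges of the rule the values were small. The last members by position were Twist1, with 58 counts in all, and Hdac9, with 8587, and the next rows outside were Gm40875 with 4 counts and Gm24429 with 0. At the minimum of 10 counts stood 6 members, among them Gm34407 and Gm4929, and at 9 counts stood 5 rows outside, among them Gm9158 and Gm17746. Gm9158, at 19146321, held 0, 0 and 0 counts in the wild-type libraries and 3, 4 and 2 in the knockout libraries.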

How the data were processed

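RNA-seq of hypothalamus was compared between 3 wild-type and 3 SRC-1 knockout libraries. RNA was extracted with RNeasy and libraries made with TruSeq chemistry, per the labels' protocols. The authors deposited raw counts of read pairs per gene. Alignment used STAR 2.7.10a and GRCm39, per the submitters' processing notes. Read pairs over exons of the mm39 RefSeq genes were counted by featureCounts without strand, multi-mapping or multi-gene options, per the file headers (version 2.0.0, and 2.0.3 in the processing notes). Overlapping genes can therefore not be told apart by strand, and read pairs with several placements were not counted.

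Counts were tested with edgeR 4.0.16 in R 4.3.3 (TMM, default expression filter with a minimum count of 10, robust quasi-likelihood, both genotypes, no covariate), adjusted by Benjamini-Hochberg over 20257 genes. Exact permutation of 3 against 3 cannot go below p = 0.1, so none was used. Alternatives were DESeq2 1.42.0, limma-voom (limma 3.58.1), other scalings, filters, windows and thresholds, and libraries left out. Exons from GRCm39 were compared with blastn 2.17.0. Gene types come from RefSeq by name (GRCm38.p6). The fit was tested on simulated data.

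Named genes were the members called, the 10 nearest to Ncoa1, those with the highest level per kilobase and the lowest p in each bin, those at the edges of the rule, and up to 2 per gene list, without clones and pseudogenes unless called. Members, lists and rules were chosen with earlier results of these data known.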

Additional observations from a re-analysis of the deposited data

How the results depend on the processing

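The number of members called was 8. It was 34 with no filter, 3 with at least 1 CPM in 3 libraries, 24 with DESeq2, 14 with limma-voom weighted by library quality, 19 at an adjusted p under 0.1, 4 without both first libraries, 0 within 10 Mb of the end of Ncoa1, and 5 to 14 with 1 library left out. With a replicate block it was 13, and in the other fits and settings 6 to 8. The share of all genes called moved too, from 0.834% to 2.65%, 0.528%, 4.26% and 1.98% in the first 4 of these settings, 0.142% without both first libraries, 0.765% with the block and 0.174% to 1.26% with 1 library left out. Rises numbered 26, 2, 17 and 12 and falls 8, 1, 7 and 2 with no filter, the 1 CPM filter, DESeq2 and sample quality weights. Rises were 3 without both first libraries and 4 to 11, with 0 to 4 falls, with 1 library left out.

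By bin, no filter gave 1, 1, 1, 14, 13, 2 and 2 calls and DESeq2 1, 1, 1, 8, 10, 0 and 3. Sample quality weights gave 1 call in the first and in the second bin and 5 between 20 and 25 Mb. Between 15 and 20 Mb there was 1 call with the 1 CPM filter and 3 without both first libraries, and between 20 and 25 Mb 1 without both first libraries. With 1 library left out calls ran from 4 to 6 between 15 and 20 Mb, 1 to 7 between 20 and 25 Mb and 0 to 1 between 30 and 35 Mb.

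Whether replicate numbers pair the libraries cannot be settled from 3 libraries per group. The deviations of same-numbered libraries from their group means correlated at -0.21, 0.35 and 0.22. Those of libraries with different numbers correlated at -0.41 to 0.26. With a replicate block 13 members passed, 11 higher and 2 lower, 6 of them between 20 and 25 Mb and 1 between 30 and 35 Mb, and 2410004P03Rik had an adjusted p of 0.0849.

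The median log2 fold change was -0.0298 with library totals alone and ran from -0.0248 to 0.0212 with 1 library left out. Over 43 named members and 15 alternative fits no call changed direction, while a call was lost in 18 instances and gained in 20. Only 8 members were called in the main fit. Small log2 fold changes of other named members did change sign, as in Cenpo. The cause of these changes was not tested. Of the members tested, 10 held under 10 counts in each wild-type library, and their fitted fold changes depend on the prior count.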
